A study of Mus musculus with 12 samples.

Results

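Mdm2 and 9 genes of the p53 response (Mdm4, Trp53, Cdkn1a, Ccng1, Bax, Bbc3, Phlda3, Zmat3 and Eda2r) were followed through loss and return of the splicing factor Puf60 in mouse N2A neuroblastoma cells. The genes were chosen by name, and they make up 10 of 52661 genes in the deposited expression table. They carry 164 of the 401633 splicing events in the deposited splicing table, which lists 18594 genes. All 10 were found in both tables.

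RNA was polyadenylated RNA from a pair of stable N2A lines, each made by Flp-In integration and expressing the rtTA3 transactivator. The pEx5 line carries a doxycycline-inducible, siRNA-resistant, 3xFlag-tagged Puf60 cDNA that contains exon 5, and the mEx5 line carries the same cDNA without exon 5. In each line, induced cells received Puf60 siRNA (siPuf60, 15 nM) and doxycycline (2 µg/ml for 24 h), knockdown cells received siPuf60 without doxycycline, and control cells received non-targeting siRNA (siNTC, 15 nM) without doxycycline. Cells were harvested 48 h after transfection, and each of the 6 groups holds 2 libraries, A and B. No control cells received doxycycline, so the drug and the cDNA cannot be told apart. The labels do not say whether A and B came from separate cultures, so a p-value here speaks only of the spread between the libraries in hand, which may be technical. Each line is a single integrated line.

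The p53 protein is a transcription factor that is kept low by Mdm2, a ubiquitin ligase that marks it for destruction, and by the related protein Mdm4, which blocks its activation domain. Mdm2 is itself a p53 target, read from a second promoter in its first intron, so the pair forms a negative feedback loop. When p53 is released it raises genes that halt the cell cycle (Cdkn1a, the kinase inhibitor p21), promote apoptosis (Bax and Bbc3, known as Puma) or tune growth signals (Phlda3, an inhibitor of Akt). Puf60 is a U2AF-related protein that helps to define 3′ splice sites, so its loss can change which exons are kept. Skipping of Mdm2 exons and of a 68 nt Mdm4 exon is known to change what these regulators can do.

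The sequences below show the Mdm2 exon that changed most and the exon after it, which holds the next in-frame ATG. They are the coding part of the 85 nt exon, which is exon 3 of 12 in transcript Mdm2-201 (GRCm38 chr10:117709700-117709784, minus strand, GENCODE annotation), and the 75 nt exon that follows it (chr10:117705155-117705229). Capitals mark the annotated start codon in the first sequence and, in the second, the next in-frame ATG outside the 85 nt exon.
Mdm2 85 nt exon, coding part: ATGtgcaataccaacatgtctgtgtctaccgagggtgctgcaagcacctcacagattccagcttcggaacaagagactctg
Mdm2 75 nt exon: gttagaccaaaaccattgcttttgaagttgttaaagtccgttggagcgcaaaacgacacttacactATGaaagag
The 85 nt exon holds 4 untranslated and 81 coding bases, the first 27 of 489 codons. A transcript that joins the exon before it straight to the 75 nt exon has no annotated start codon, and the next ATG in frame is codon 50. The N-terminal part of Mdm2 is the part known to bind p53. The protein was not measured.

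A further Mdm2 exon that changed is the 97 nt exon 8 (chr10:117695953-117696049, minus strand), which is wholly coding and is shown whole because its length is not a multiple of 3.
Mdm2 97 nt exon: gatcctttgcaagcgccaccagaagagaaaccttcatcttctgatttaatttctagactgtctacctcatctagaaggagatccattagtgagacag
Without it, the reading frame of Mdm2-201 meets a stop after 162 codons, in exon 9 and 308 nt before the last exon junction.

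Inclusion is given as percent spliced in (PSI), the percentage of an event's reads that contain the exon or keep the intron. The libraries held 22908930 to 41494994 junction reads. Gene levels are a gene's exon–exon junction reads scaled to a fixed library size by median of ratios (CPM). This scale is not per length, so levels are compared between libraries and not between genes. Puf60 itself stood at 618 and 631 CPM in induced pEx5 cells and at 623 and 577 CPM in induced mEx5 cells, values that include reads from the cDNA. It stood at 58.4 and 64.5 CPM in pEx5 knockdown cells and at 75.2 and 71.8 CPM in mEx5 knockdown cells. Control cells had 322 and 297 CPM in pEx5 and 303 and 305 CPM in mEx5, so the libraries carry the Puf60 levels that their treatment field gives. A free-text description of the doxycycline libraries partly calls them uninduced, and the treatment field was used.

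In the authors' group RPKM values, which are scaled to library size and transcript length, 14 of 15 sympathetic neuroblastoma and neuron markers reached 1 RPKM, with Th below it. Their summed level was 1322 and 1153 RPKM in induced pEx5 and mEx5 cells, 1277 and 1162 RPKM in knockdown cells, and 1488 and 1396 RPKM in control cells. The fibroblast list summed to at most 3.97 RPKM, the immune, epithelium and endothelium lists to at most 0.80, 1.15 and 1.32 RPKM, and the glia list to 4.87 to 6.63 RPKM, with Krt18, Cd3e and Sox10 at 0. The fibroblast sum was 0.94 and 3.97 RPKM in pEx5 and mEx5 knockdown cells, against 0.45 and 1.47 RPKM in control cells, and its part in the results was not tested. In bulk RNA, fewer cells of a type and less RNA per cell cannot be told apart.

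Skipping of the 85 nt Mdm2 exon was the largest splicing change among the member events with enough reads. In pEx5 cells its PSI was 58.3 and 55.1 in induced libraries, 18.9 and 17.1 in knockdown libraries, and 81.5 and 76.9 in control libraries. In mEx5 cells it was 56.8 and 57.7 in induced libraries, 20.9 and 18.4 in knockdown libraries, and 86.6 and 81.6 in control libraries. The 3 conditions did not overlap in either line: controls mostly kept the exon, knockdown cells mostly skipped it, and induced cells lay between them.

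On knockdown the exon fell by 62.8 points (SE 1.65, n = 4 libraries against 4; weighted limma, adjusted p = 1.11e-10). The change was -61.2 points in pEx5 and -64.4 points in mEx5, and the difference between the lines had an adjusted p of 0.95. Induction raised it by 38.2 points relative to knockdown (adjusted p = 2.88e-08), with 38.8 points in pEx5 and 37.6 in mEx5, so that 60.7% of the fall was turned back. Induced cells remained 24.7 points below control cells (adjusted p = 7.72e-06), so inclusion did not return to the control level in either line. Each library's value rests on 790 to 1620 reads, with an exact (Clopper–Pearson) 95% interval of 1.92 to 3.42 points on either side, which covers counting error only. Of the 8524 exons tested, 8 fell further on knockdown, or 0.0939%, and the median change over all 8524 was -4.95 points. On induction 64 exons rose further, or 0.751%, beside a median of 2.97 points over all tested exons.

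The 97 nt exon showed a smaller loss that was turned back almost wholly. Its PSI was 95.8 and 96.3 in induced, 84.8 and 80.8 in knockdown, and 97.4 and 97.3 in control pEx5 libraries. In mEx5 it was 97.2 and 98.4 in induced, 84.1 and 83.3 in knockdown, and 97.1 and 96.6 in control libraries. Knockdown libraries were the low ones in both lines, while the ranges of induced and control libraries over both lines overlapped. The exon fell by 13.9 points on knockdown (SE 0.89, adjusted p = 1.93e-08) and rose by 13.7 points on induction (adjusted p = 1.43e-07). Induced cells differed from controls by -0.22 points (adjusted p = 0.839), and 98.4% of the fall was turned back. Unlike the 85 nt exon it does not stand far from other exons, since 1799 of 8524, or 21.1%, fell further.

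**Figure D1:**
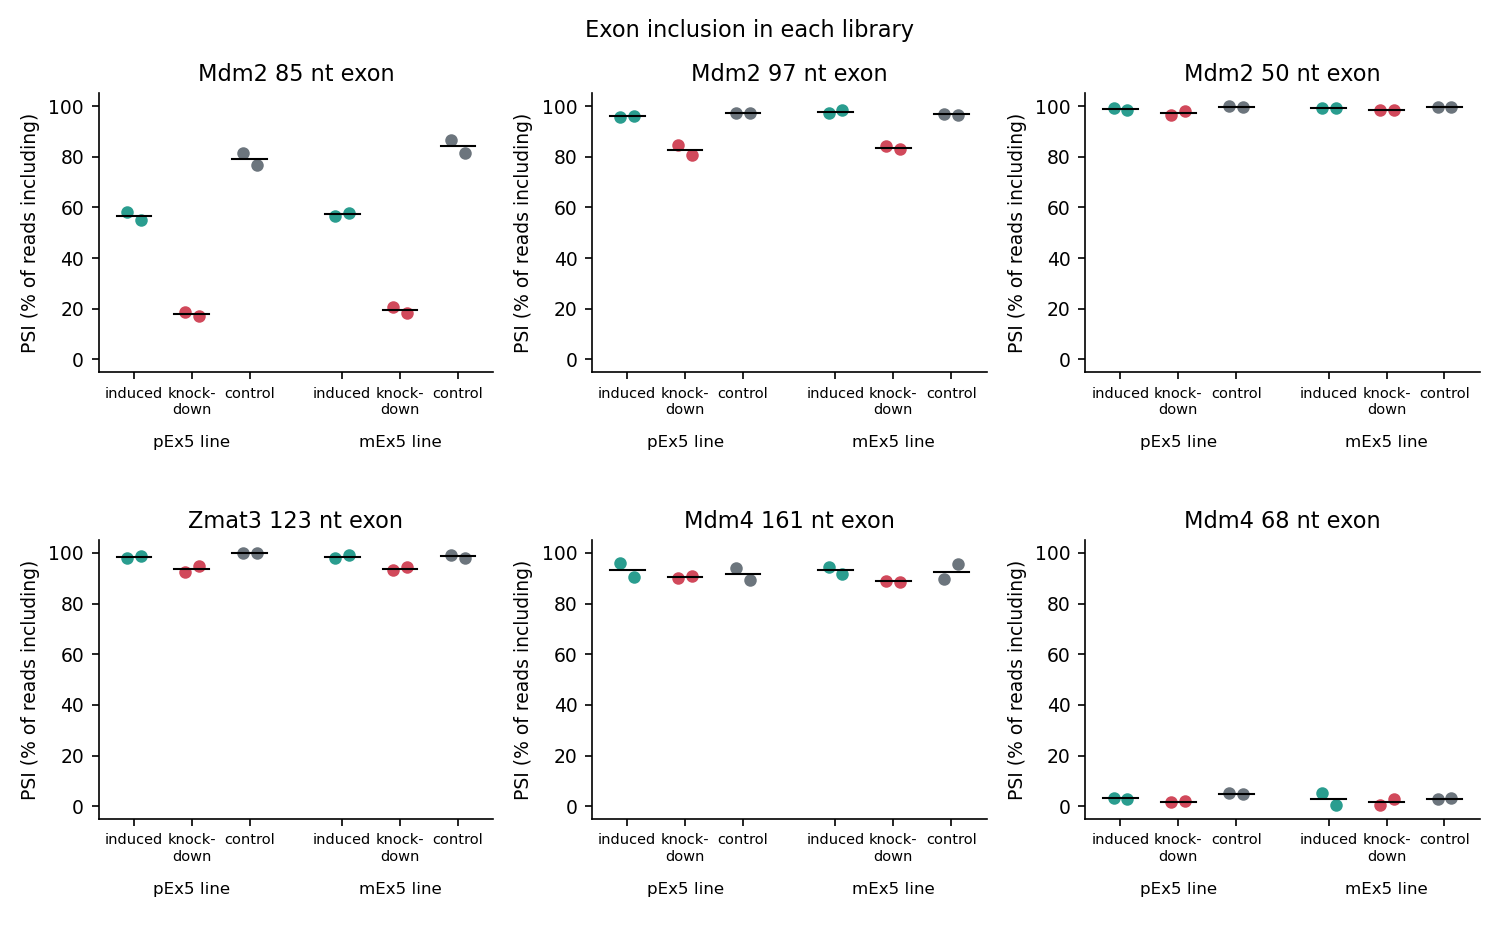
PSI in percent of 6 exons (3 of Mdm2, 1 of Zmat3 and 2 of Mdm4), 1 panel each. Points are libraries, bars are group means, and each line shows induced, knockdown and control cells from left to right. The 85 nt Mdm2 exon separates all 3 conditions, from 17.1 and 20.9 at the ends of the knockdown range to 76.9 and 86.6 at the ends of the control range, and the 97 nt exon drops in knockdown libraries only.

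Across the whole gene set, 99 of the 164 events had at least 10 reads in every library and were not the reference site of a choice between splice sites: 24 in Mdm2, 13 in Mdm4, 5 in Trp53, 4 in Cdkn1a, 12 in Ccng1, 23 in Bax, 3 in Bbc3, 1 in Phlda3, 14 in Zmat3 and none in Eda2r. Most were fixed: 83 of the 99 varied by under 5 points over the 12 libraries, with a mean PSI over 95 in 35 events and under 5 in 57. Only 7 had a mean PSI of 5 to 95 and so entered the weighted test, in which a call needs an adjusted p under 0.05 and a change of 10 points. The exons among these 7 were the 85 nt and 97 nt Mdm2 exons and a 161 nt Mdm4 exon. The others were introns and a choice between 3′ splice sites, so shares of exons below have another denominator. On knockdown 2 of the 7 were called, the 85 nt and 97 nt Mdm2 exons, both lower, beside 17.5% of the 22767 events tested. Of all exons tested, 28.6% were called lower. On induction the same 2 were called higher, beside 11.5% of all events and 18.5% of the exons called higher. Between induced and control cells 1 was called, the 85 nt exon, beside 3.19% of events. For the difference in knockdown effect between the lines 0 were called by weighted or unweighted limma, with 0 at an unadjusted p under 0.05, beside 0% of all events. An unweighted limma test with no PSI range called the same number on knockdown, 2 of the 99, beside 1.21% of 222055 events.

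Further Mdm2 events moved by less than 10 points. The 50 nt exon 6 (GRCm38 chr10:117701565-117701614, minus strand) lay at 96.7 to 99.9 PSI in the 12 libraries. It changed by -1.86 points on knockdown (unweighted limma, adjusted p = 0.00378), and its loss would bring a stop after 103 codons. The PSI of the 161 nt intron before the 85 nt exon changed by 2.75 points (unweighted limma, adjusted p = 0.0391). It rests on 1.02 to 6.42 intron reads in knockdown libraries and 2.01 to 3.57 in control libraries. The spliced junction it is set against averaged 2.04 CPM in knockdown and 5.79 CPM in control cells. A rise in retention is therefore not shown. The PSI of the 523 nt first intron, which is not a plain measure of retention, changed by -4.08 points on knockdown (weighted limma, adjusted p = 0.0182). It changed by 4.55 points on induction (adjusted p = 0.0204).

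The first intron holds the p53-responsive promoter, and 2 of the 9 annotated Mdm2 transcripts start within it, so the reads behind its PSI were looked at apart. Reads across its downstream boundary averaged 3.74 CPM in induced, 3.18 CPM in knockdown and 3.43 CPM in control cells, while at most 2 reads crossed its upstream boundary in any library. Such reads can come from transcripts that start in the intron, so the PSI of this event is not a measure of retention alone. The spliced junction of exon 1 averaged 10.2 CPM in induced, 12.7 CPM in knockdown and 9.56 CPM in control cells.

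The total of the Mdm2 junctions did not differ detectably between conditions. Mdm2 had 125 and 117 CPM in induced, 128 and 127 CPM in knockdown, and 129 and 131 CPM in control pEx5 libraries. In mEx5 it had 112 and 123 CPM in induced, 117 and 111 CPM in knockdown, and 117 and 115 CPM in control libraries. The conditions overlapped over both lines, and the log2 change on knockdown was -0.02 (95% interval -0.11 to 0.06; limma, adjusted p = 0.66). On induction it was -0.02 (adjusted p = 0.78), and between induced and control cells -0.04 (adjusted p = 0.48). In the authors' deposited table the log2 fold change of Mdm2 on induction was -0.17 in pEx5 (FDR 0.0135) and 0.03 in mEx5 (FDR 0.809).

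The total of the Mdm2 junctions hides opposite movements along the transcript. The junctions on either side of the 85 nt exon averaged 4.85 and 7.35 CPM in induced cells, 2.04 and 3.09 CPM in knockdown cells, and 5.79 and 10.0 CPM in control cells. The next junction, from the 75 nt exon onward, averaged 13.9 CPM in induced cells, 18.2 ± 1.46 CPM in knockdown cells and 12.5 ± 0.838 CPM in control cells (SD, n = 4). Its 4 knockdown libraries, at 16.9 to 19.9 CPM, all lay above its 4 control libraries, at 11.2 to 13.0 CPM. The last junctions were level, with 23.5 CPM in induced, 23.6 CPM in knockdown and 23.7 CPM in control cells at the 3′ end.

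With the junctions beside the 85 nt and 97 nt exons left out, a choice made after seeing the data, the remaining 7 Mdm2 junctions summed to 83.9 to 92.7 CPM in induced, 91.3 to 106 CPM in knockdown and 80.9 to 96.6 CPM in control libraries. On that sum Mdm2 was higher on knockdown by 0.17 on the log2 scale (limma, adjusted p = 0.00196) and lower on induction by 0.15 (log2 change -0.15, adjusted p = 0.00733). Induced and control cells then differed by 0.02 (adjusted p = 0.764). Reads that skip an exon are in neither sum, so skipping of the 85 nt and 97 nt exons lowers the full total at an unchanged transcript level. The full total is therefore biased low on knockdown, and its lack of change does not show an unchanged level. The sum of the remaining 7 is free of the loss at these exons, but its junctions did not all rise. The last averaged 23.6 CPM in knockdown and 23.7 CPM in control cells, so a direction for Mdm2 still depends on which junctions are summed.

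**Figure D2:**
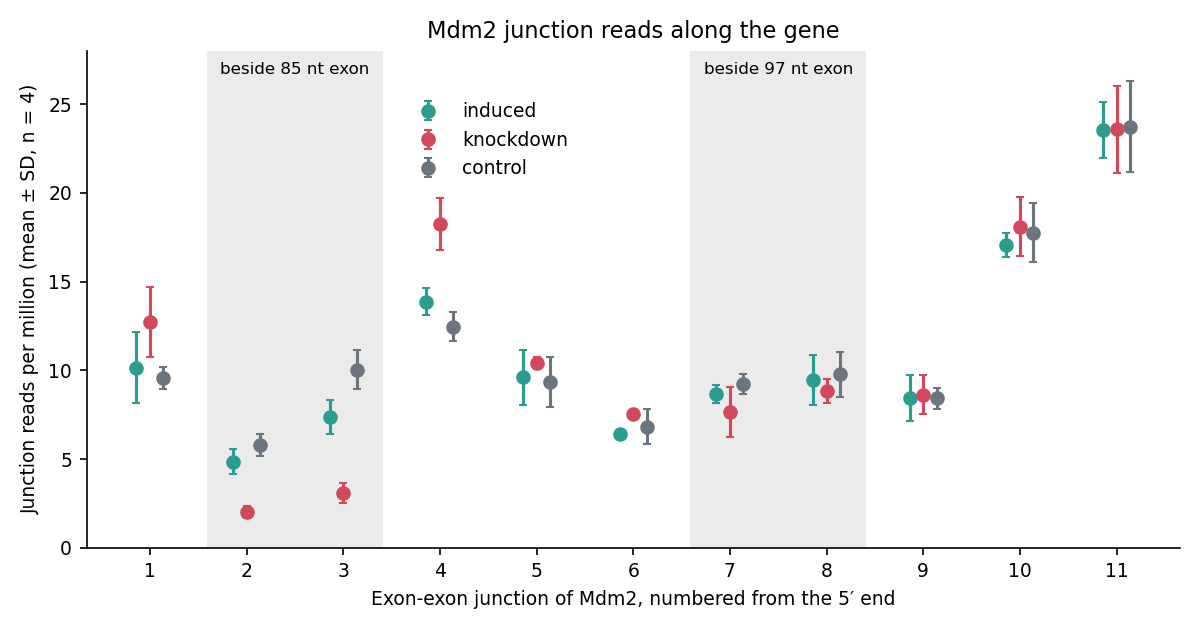
Level in CPM at each of the 11 Mdm2 exon–exon junctions, in order from the 5′ end, as mean ± SD over the 4 libraries of each condition (induced, knockdown and control). The junctions on either side of the 85 nt exon are lowest in knockdown cells (2.04 and 3.09 CPM), the next is highest there (18.2 CPM), and the conditions meet at the 3′ end.

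The authors' deposited table gives a pair of values for Mdm2 that point apart. Its group RPKM was 70.0 and 67.9 in induced, 104 and 89.1 in knockdown, and 62.6 and 51.7 in control pEx5 and mEx5 cells, a log2 ratio of 0.74 and 0.78 between knockdown and control. The log2 fold change in the same authors' deposited table was 0.02 in pEx5 (FDR 0.801) and 0.01 in mEx5 (FDR 0.962). A gap over 0.5 between these quantities was found in 91 of 11701 genes in pEx5 (0.778%) and 107 of 11953 in mEx5 (0.895%), counting genes of at least 1 RPKM. In pEx5 13 genes and in mEx5 21 genes had a gap at or above that of Mdm2. RPKM divides by a transcript length. The annotated transcripts that join the 83 nt and 75 nt exons directly, Mdm2-203, Mdm2-206 and Mdm2-207, are 570, 683 and 499 nt long, against 3099 nt for Mdm2-201. The part of transcript length in the RPKM values was not tested.

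No change in the splicing of Mdm4 was detected at the depth of its reads. Its best known switch, the 68 nt exon 6 of 11 (GRCm38 chr1:133004654-133004721, minus strand), is shown because skipping it gives the short Mdm4 form, with a stop after 128 of 490 codons.
Mdm4 68 nt exon: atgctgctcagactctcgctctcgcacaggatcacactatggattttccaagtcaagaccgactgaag
This exon was nearly always skipped, in every condition. In pEx5 its PSI was 3.29 and 2.86 in induced, 1.72 and 1.88 in knockdown, and 5.23 and 4.65 in control libraries. In mEx5 it was 5.10 and 0.54 in induced, 0.44 and 2.81 in knockdown, and 2.72 and 3.25 in control libraries. Control and knockdown ranges overlapped in mEx5 and over both lines, while in pEx5 alone both control libraries lay above both knockdown libraries. The change on knockdown over both lines was -2.25 points (unweighted limma, adjusted p = 0.363). Each value rests on 63 to 148 reads with a 95% interval of 2.30 to 6.15 points on either side, so a change of a few points was not detectable at this depth.

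Among the other Mdm4 events, a 161 nt exon had a PSI of 88.6 to 96.1 and changed by -2.45 points on knockdown (weighted limma, adjusted p = 0.403). A choice between 3′ splice sites 3 nt apart had 30.1 to 51.9 PSI over 68 to 124 reads and changed by 6.09 points (adjusted p = 0.305). A 78 nt exon lay at 0.10 to 2.55 PSI, a 140 nt and a 198 nt exon at no more than 0.41 and 0.69, and a 100 nt and an 81 nt exon at 100. No Mdm4 event was called in the authors' deposited table in any of their comparisons.

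Zmat3, an RNA-binding protein encoded by a p53 target gene, had a small exon change. Its 123 nt exon 3 of 6 (GRCm38 chr3:32345458-32345580, minus strand) is shown because it is a multiple of 3 long and its loss keeps the frame, leaving 249 of 290 codons.
Zmat3 123 nt exon: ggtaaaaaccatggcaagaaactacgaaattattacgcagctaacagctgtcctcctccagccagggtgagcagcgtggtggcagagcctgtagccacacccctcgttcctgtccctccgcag
Its PSI was 97.8 and 98.8 in induced, 92.4 and 94.9 in knockdown, and 100 and 100 in control pEx5 libraries. In mEx5 it was 97.9 and 99.3 in induced, 93.2 and 94.4 in knockdown, and 99.3 and 98.1 in control libraries. All 4 knockdown libraries lay below all 8 others. The change was -5.63 points on knockdown (SE 0.72; unweighted limma, adjusted p = 0.00199) and 4.72 points on induction (adjusted p = 0.0617), under the 10 points a call needs. The authors' deposited table calls it, together with the 85 nt and 97 nt Mdm2 exons, on knockdown and on induction in both lines. That table also calls the 50 nt Mdm2 exon on knockdown in pEx5 and the 523 nt Mdm2 intron on induction in mEx5. Between the induced cells of the lines it calls the 97 nt Mdm2 exon, at a group PSI of 96.0 in pEx5 and 97.8 in mEx5.

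The remaining members showed no splicing call. A 491 nt Trp53 intron had a PSI of 3.65 to 10.9 and a 470 nt Bax intron one of 7.84 to 15.1. The single Phlda3 event and all measured events of Cdkn1a, Ccng1 and Bbc3 were also not called.

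At the level of whole genes, 9 members had enough junction reads to test and 3 were higher on knockdown over the lines combined: Cdkn1a, Trp53 and Mdm4. None was lower, and changes were common, since 51.8% of the 10363 genes tested were called, 26.5% higher and 25.3% lower. The members' median log2 change was 0.02, beside 0.01 over all genes tested. In the separate lines, 2 members were higher in pEx5 and 3 in mEx5, beside 39% and 35.9% of genes called. The authors' deposited table calls the same 3 genes with the same sign in both lines, beside 23.8% of its 18600 genes.

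Cdkn1a had the clearest change. Its level was 44.2 and 43.4 CPM in induced, 43.9 and 41.4 CPM in knockdown, and 33.7 and 29.6 CPM in control pEx5 libraries. In mEx5 it was 40.6 and 37.6 CPM in induced, 36.3 and 41.0 CPM in knockdown, and 27.4 and 27.1 CPM in control libraries. Every induced and knockdown library lay above every control library. The log2 change on knockdown was 0.46 (SE 0.06, limma, adjusted p = 1.77e-06), with 0.43 in pEx5 and 0.50 in mEx5.

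A return of Cdkn1a toward control on induction was not detected. Relative to knockdown the log2 change was 0.03 (95% interval -0.09 to 0.15; limma, adjusted p = 0.736), and induced cells stood 0.49 above control cells (adjusted p = 2.27e-06). The same induced libraries had turned back 60.7% and 98.4% of the falls of the 85 nt and 97 nt Mdm2 exons. A link between these exons and the level of Cdkn1a was not tested. The authors' deposited table gives log2 fold changes of 0.35 (FDR 5.86e-07) in pEx5 and 0.41 (FDR 1.16e-08) in mEx5 on knockdown.

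Trp53, which encodes p53, rose on knockdown and fell on induction. It had 174 and 175 CPM in induced, 216 and 203 CPM in knockdown, and 160 and 151 CPM in control pEx5 libraries. In mEx5 it had 183 and 194 CPM in induced, 200 and 228 CPM in knockdown, and 183 and 184 CPM in control libraries. Knockdown libraries were the highest in each line, while induced and control libraries overlapped over both lines. In pEx5 alone the induced libraries lay above both controls, with a log2 difference of 0.17 (limma, adjusted p = 0.044), beside 29.2% of genes called there. The log2 change was 0.32 on knockdown (SE 0.04, limma, adjusted p = 3.72e-06), -0.22 on induction (adjusted p = 0.00049) and 0.10 between induced and control cells (adjusted p = 0.069). It was the 1 member called on induction, beside 37.7% of all genes. In the authors' deposited table the Trp53 change on induction was -0.26 in pEx5 (FDR 0.00199) and -0.16 in mEx5 (FDR 0.0928). On knockdown it was 0.37 in pEx5 (FDR 1.21e-06) and 0.20 in mEx5 (FDR 0.0194) there.

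The Trp53 change on knockdown was 0.43 in pEx5 and 0.22 in mEx5, a difference of 0.21 with an unadjusted p of 0.0232 and an adjusted p of 0.766 (limma). No member was called for a difference between the lines, beside 0.0289% of genes, or 3 of 10363, and Trp53 was the 1 member with an unadjusted p under 0.05. The lines differed without knockdown too: in control cells, Trp53 was lower in pEx5 than in mEx5 (log2 difference -0.24, adjusted p = 0.00626), Ccng1 was higher (0.29, adjusted p = 0.0201) and Mdm2 was higher (0.17, adjusted p = 0.0454). These 3 of 9 members stand beside 27.4% of genes called between the control cells of the lines.

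Mdm4 passed the test narrowly. It had 29.4 and 27.3 CPM in induced, 26.0 and 24.5 CPM in knockdown, and 23.5 and 24.9 CPM in control pEx5 libraries. In mEx5 it had 20.5 and 23.9 CPM in induced, 29.3 and 24.4 CPM in knockdown, and 20.5 and 22.2 CPM in control libraries. Knockdown and control libraries overlapped in pEx5 and not in mEx5. The log2 change on knockdown was 0.19 (SE 0.07, limma, adjusted p = 0.0289), with 0.06 in pEx5 (adjusted p = 0.658) and 0.32 in mEx5 (adjusted p = 0.0165). The rise was not seen at every junction. Junctions 7, 8 and 9 from the 5′ end averaged 5.98, 5.62 and 10.8 CPM in knockdown and 4.21, 5.14 and 9.38 CPM in control cells. Junctions 3 and 4 averaged 1.04 and 2.27 CPM in knockdown and 1.10 and 2.54 CPM in control cells, and the rest were barely read. Leaving out replicate A of the knockdown or of the control libraries ended the call in either line, with adjusted p of 0.0990 and 0.0934 in pEx5 and 0.165 and 0.108 in mEx5. A variance prior without a trend also ended it (adjusted p = 0.0616). On induction it changed by -0.05 (adjusted p = 0.589), with 0.16 in pEx5 and -0.27 in mEx5. The difference between these changes had an adjusted p of 0.166. In the authors' deposited table Mdm4 rose on knockdown by 0.19 in pEx5 (FDR 0.00566) and 0.22 in mEx5 (FDR 0.00127). Its induction change there was -0.08 in pEx5 (FDR 0.402) and -0.19 in mEx5 (FDR 0.00912), so the sign in pEx5 differs from that of the junction reads. Among induced cells, Mdm4 was higher in pEx5 than in mEx5 by 0.35 (limma, adjusted p = 0.0091), beside 37.5% of genes called between the induced cells of the lines.

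None of the other tested targets among the members was called on knockdown (limma; 0 at an unadjusted p under 0.05). Bax, a pore-forming protein of the mitochondrial outer membrane, had 131 to 145 CPM in induced, 127 to 141 CPM in knockdown and 130 to 149 CPM in control libraries. Its log2 change on knockdown was -0.01 (95% interval -0.11 to 0.09; limma, adjusted p = 0.873). Ccng1, the cyclin G1 gene, had 23.4 to 26.3 CPM in induced, 21.8 to 24.7 CPM in knockdown and 20.0 to 26.1 CPM in control libraries, with a change of 0.02 (adjusted p = 0.772). For both genes the 3 conditions overlapped over both lines. In mEx5 alone, however, the induced Ccng1 libraries, at 25.5 and 26.0 CPM, lay above the knockdown libraries, at 21.8 and 23.4 CPM, and the control libraries, at 22.1 and 20.0 CPM. There induced minus control cells was 0.29 (limma, adjusted p = 0.0225), beside 21.4% of genes called in that comparison.

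Zmat3 had 25.4 to 27.3 CPM in induced, 25.2 to 27.1 CPM in knockdown and 25.4 to 29.7 CPM in control libraries, and changed by -0.06 (95% interval -0.19 to 0.07; limma, adjusted p = 0.465). The authors' deposited table has Zmat3 at -0.23 in pEx5 (FDR 0.000662) and -0.07 in mEx5 (FDR 0.464). Bbc3, which binds and blocks anti-apoptotic Bcl-2 proteins, was thinly covered at 42 to 92 reads. Its change of 0.22 had a 95% interval of -0.15 to 0.58 (adjusted p = 0.309), so a change was not detectable at this depth, and the authors' deposited table gives 0.36 (FDR 0.0988) and 0.42 (FDR 0.0573). Eda2r, a receptor of the TNF receptor family, had 1 junction read in 1 library and 0 to 0.01 RPKM, and was not tested.

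Phlda3 was the member lower in induced than in control cells. It had 8.33 to 10.7 CPM in induced, 9.70 to 11.2 CPM in knockdown and 10.7 to 12.8 CPM in control libraries. The log2 change was -0.12 on knockdown (limma, adjusted p = 0.283) and -0.23 between induced and control cells (adjusted p = 0.0468). The call between induced and control cells was lost without any 1 of 8 libraries (either mEx5 control, either pEx5 knockdown, either pEx5 induced, pEx5 control A or mEx5 induced B), with a change of -0.16 at its smallest and an adjusted p of up to 0.198. It was also lost with scaling to total junction reads (adjusted p = 0.0768), with the variance prior taken without a trend (0.0578) and with genes of at least 1 mean read tested (0.0610). Between induced and control cells, 1 member was called higher (Cdkn1a) and 1 lower (Phlda3), beside 38% of all genes.

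**Figure D3:**
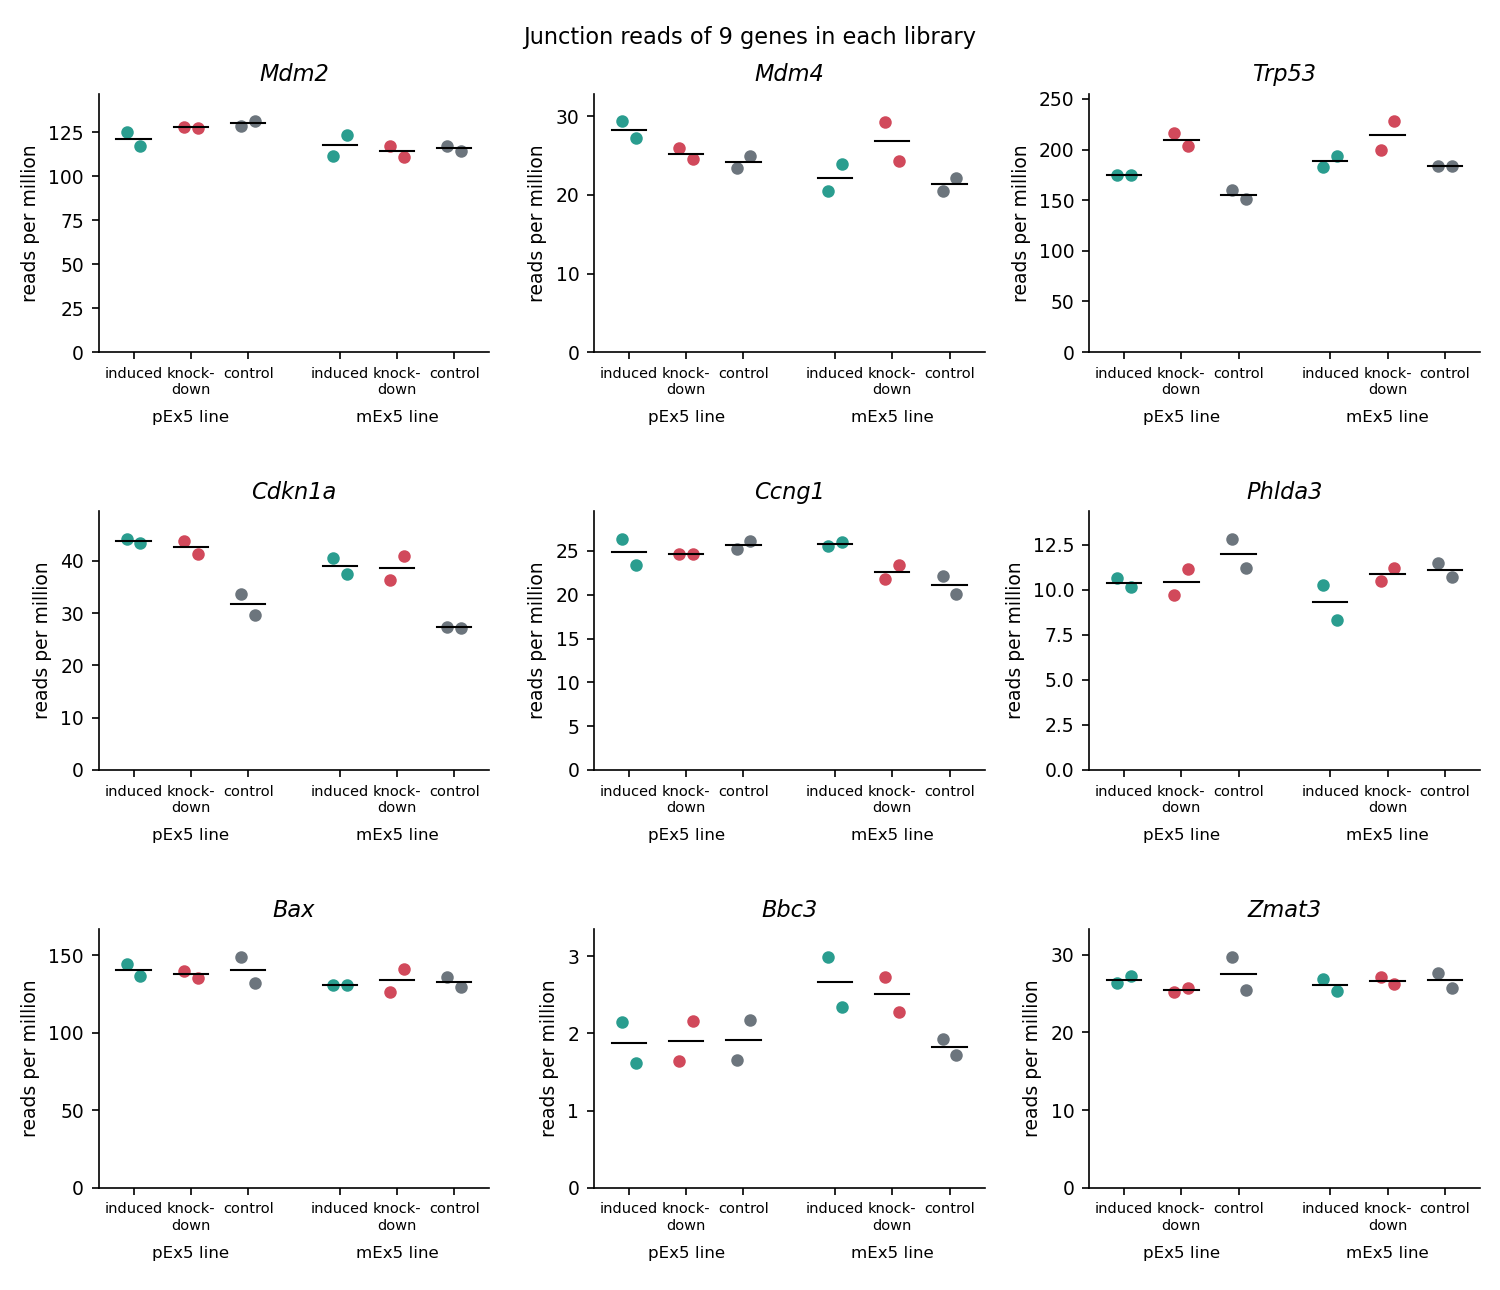
Junction-read level in CPM of 9 members in each library, with the group mean as a bar, for induced, knockdown and control cells of each line from left to right. Cdkn1a has all induced and knockdown libraries (36.3 to 44.2 CPM) above all control libraries (27.1 to 33.7 CPM), Trp53 is highest in knockdown cells of each line, and Mdm2 overlaps between conditions.

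A wider list of 50 p53 target genes held 36 with enough reads to test. On knockdown 12 of the 36 were higher and 4 lower, beside 26.5% and 25.3% of all genes, with a median log2 change of 0.04 beside 0.01 over all genes. With the members left out, 11 of 29 were higher and 4 lower. On induction 5 of the 36 were higher and 5 lower, beside 19% and 18.7% of all genes. Between induced and control cells 12 were higher and 7 lower, beside 18.6% and 19.4% of all genes, with a median of 0.10 beside -0.01. No test set the list against other genes, so nothing is read from these counts about the list as a whole. The other 14 listed genes, among them the death receptor gene Fas and the BH3-only gene Pmaip1, had too few junction reads to test or none listed.

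Gdf15, which encodes a secreted stress cytokine, had the largest rise of the list. It had 15.3 to 23.2 CPM in induced, 13.7 to 18.6 CPM in knockdown and 7.85 to 9.36 CPM in control libraries, and all induced and knockdown libraries lay above all controls. The log2 change was 0.93 on knockdown (SE 0.07, limma, adjusted p = 2.71e-09). Induction raised it by a further 0.24 (adjusted p = 0.0143), so that induced cells stood 1.17 above control cells.

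Sesn2, a stress-response inhibitor of mTORC1, followed the same course. It had 86.0 to 103 CPM in induced, 67.2 to 78.4 CPM in knockdown and 51.7 to 56.8 CPM in control libraries, with no overlap between conditions. It was 0.41 higher on knockdown (limma, adjusted p = 1.22e-07), a further 0.39 higher on induction (adjusted p = 6.29e-07) and 0.79 higher in induced than in control cells. Fdxr, a mitochondrial ferredoxin reductase, rose by 0.50 on knockdown (adjusted p = 5.10e-08) and fell on induction (log2 change -0.23, adjusted p = 0.000974).

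In pEx5 the induced Fdxr libraries stayed near knockdown, and in mEx5 they overlapped controls. Its level was 73.5 to 75.7 CPM in induced, 75.4 to 77.9 CPM in knockdown and 49.6 to 53.6 CPM in control pEx5 libraries, against 43.0 to 47.7, 59.3 to 61.5 and 44.7 to 45.0 CPM in the same conditions of mEx5. The log2 change on induction was -0.04 in pEx5 and -0.42 in mEx5, and the difference between the lines, 0.38, had an adjusted p of 0.0697 (limma). Ei24 and the kinase gene Plk3 were 0.29 and 0.28 higher on knockdown (limma, adjusted p = 0.000135 and 0.000182). On induction they changed by -0.13 (adjusted p = 0.0626) and 0.03 (adjusted p = 0.676).

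Some listed targets went the other way. Trp53i11 was lower on knockdown (log2 change -0.55, limma, adjusted p = 0.00023), as were Ckap2, a spindle protein gene (-0.36, adjusted p = 1.75e-07), and Ercc5, a repair endonuclease gene (-0.30, adjusted p = 0.000172). These 3 and the 6 genes above, Cdkn1a included, are the listed targets called with the same sign in each line. Trp53i11, Ckap2 and Ercc5 were still lower in induced than in control cells (-0.29, -0.27 and -0.34, limma, adjusted p = 0.0339, 1.62e-05 and 9.49e-05).

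**Figure D4:**
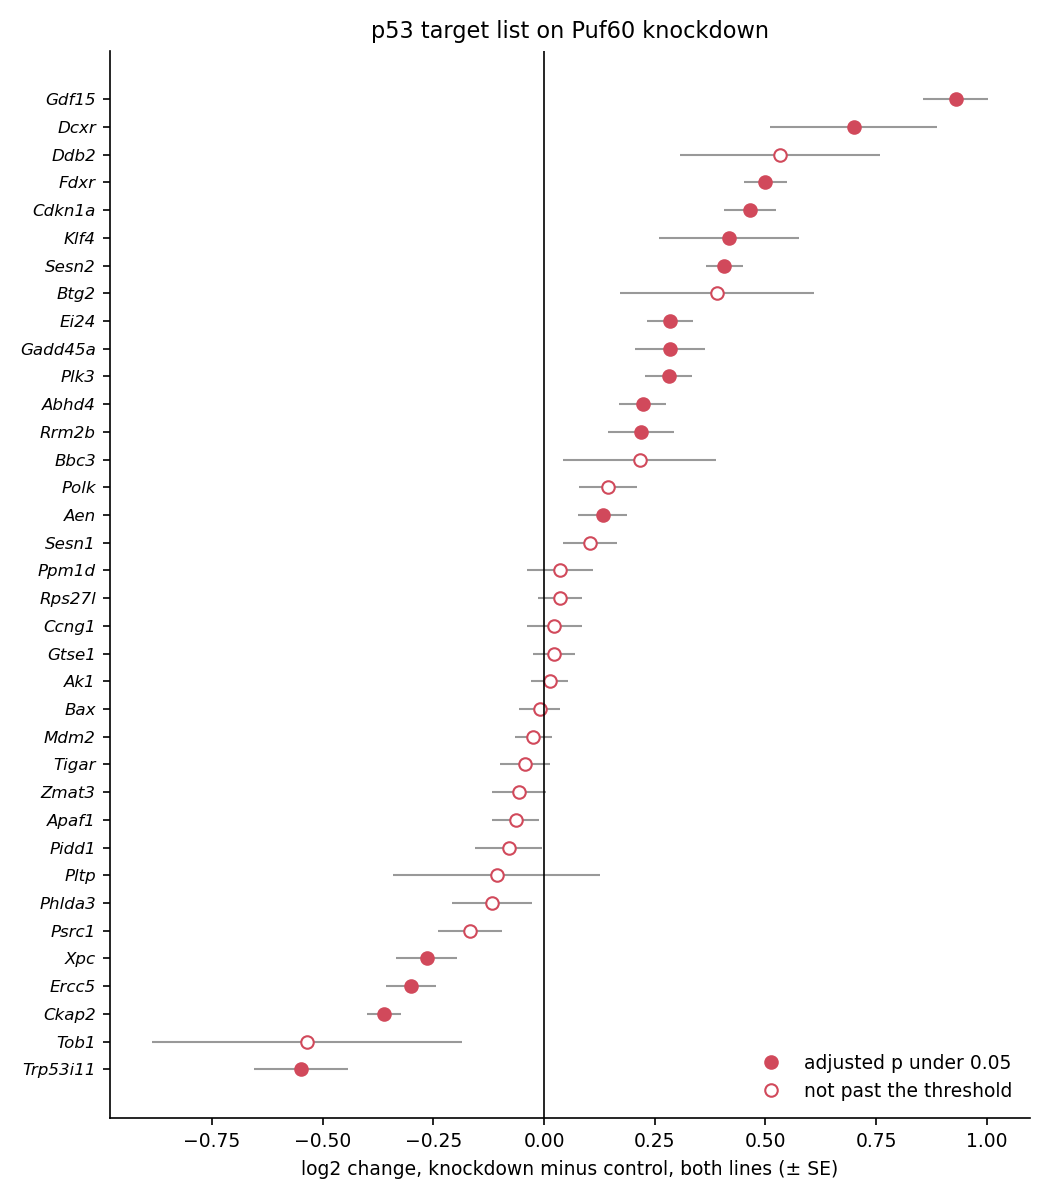
Log2 change on knockdown in both lines for the 36 tested p53 target genes, with SE bars, in order of the change; filled points have an adjusted p under 0.05 (limma). The genes run on both sides of 0, from Gdf15 at 0.93 to Trp53i11 at -0.55, with 12 called higher and 4 called lower.

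Of 32 listed genes that act on p53, 27 were tested. On knockdown 6 of the 27 were higher and 10 lower, beside 26.5% and 25.3% of all genes, with a median of -0.07 beside 0.01. On induction 6 were higher and 6 lower, beside 19% and 18.7% of all genes. Between induced and control cells 1 was higher and 8 lower, beside 18.6% and 19.4%. As for the targets, nothing is read from these counts about the list. The list holds genes that raise p53 activity and genes that lower it, so the counts have no single direction for p53.

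The regulators called lower in each line were Atr, Trp53bp1, Atm and Chek2. Chek1, the checkpoint kinase gene downstream of Atr, is on the same list and was not called on knockdown (log2 change -0.08, limma, adjusted p = 0.156). Atr, a kinase that senses stalled replication, had 147 to 177 CPM in induced, 98.1 to 104 CPM in knockdown and 170 to 206 CPM in control libraries. Its knockdown libraries lay apart from all others, with a log2 change of -0.86 on knockdown (limma, adjusted p = 3.87e-12) and 0.67 on induction (adjusted p = 3.81e-10). Trp53bp1, a protein of broken DNA ends, changed by -0.49 on knockdown (adjusted p = 9.49e-10) and 0.31 on induction (adjusted p = 1.23e-06).

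Atm, the kinase for double-strand breaks, changed by -0.37 on knockdown (limma, adjusted p = 5.94e-06) and 0.23 on induction (adjusted p = 0.00166). The checkpoint kinase gene Chek2 changed by -0.24 (adjusted p = 0.00112) and 0.42 (adjusted p = 7.00e-06). Induced cells stood above control cells for Chek2 (log2 difference 0.18, limma, adjusted p = 0.0161). They stood below control cells for Atr, Trp53bp1 and Atm (-0.19, -0.18 and -0.14, adjusted p = 0.00162, 0.00057 and 0.0353). Rchy1, a ubiquitin ligase gene whose product also marks p53, was 0.21 higher on knockdown (adjusted p = 0.00183) and lower on induction (log2 change -0.15, adjusted p = 0.0222). Unlike Cdkn1a, Gdf15 and Sesn2, these 5 genes and Trp53 moved on induction against their direction on knockdown. Of the targets called in each line, Fdxr did so too (log2 change on induction -0.23, limma, adjusted p = 0.000974). Ei24, Trp53i11 and Ckap2 also moved back, short of the threshold (-0.13, 0.25 and 0.09, adjusted p = 0.0626, 0.0658 and 0.0722). Plk3 and Ercc5 did not.

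The members' promoters are shown for the p53 element, because regulation by p53 is the known link between most of them; known p53 sites can lie outside these windows, as in the first intron of Mdm2. Each sequence is the match to the p53 consensus decamer (searched on both strands) in the 300 bases from 250 before to 50 after the RefSeq start of the gene (GRCm38.p6). Capitals mark the matched decamer, which is the whole of each sequence.
Mdm2 (window chr10:117710709-117711008, minus strand), 186 to 177 bases before the start: GAACTTGCCT
Trp53 (window chr11:69580109-69580408, plus strand), 75 to 66 bases before the start: GGACTTGCCC
Cdkn1a (window chr17:29090729-29091028, plus strand), 73 to 64 bases before the start: GGACTAGCTT
Cdkn1a, same window, 51 to 42 bases before the start: GAACATGTCT
Ccng1 (window chr11:40755237-40755536, minus strand), 185 to 176 bases before the start: GGGCAAGCCT
Bax (window chr7:45466849-45467148, minus strand), 201 to 192 bases before the start: AGGCAAGCTT
A match was found for 5 of the 9 members with a promoter entry, against 9.55% of 27025 genes and 8.36% of 32851 windows of this length. Of these 5 genes, Cdkn1a and Trp53 rose on knockdown, and Ccng1, Bax and the Mdm2 junction total were not called. A match is a description of these letters and not a binding site, and a window without one says nothing of p53 there.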

How the data were processed

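Polyadenylated RNA of 12 libraries (6 groups of 2) was analysed. The authors' deposited splicing table, made with vast-tools per the file headers, holds PSI in percent per event and library, with a quality text that also holds the inclusion and exclusion reads as a score; 98.9% of 3552217 PSI values lay within 0.02 points of those reads. The deposited expression table holds 1 RPKM value per gene and group and the authors' log2 fold changes, p-values and FDR; Salmon 0.14.1, edgeR and mm10 are named per the submitters' processing notes. Its values are per group, so gene levels were tested on junction reads per library taken from the deposited splicing table.

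Events with at least 10 reads in each library and a mean PSI of 5 to 95 were tested in R 4.3.3 with limma 3.58.1, using logit-transformed reads (pseudocount 0.5), weighted by read precision with a variance floor of 0.01. A call needed a Benjamini–Hochberg adjusted p under 0.05 over all events and 10 PSI points. Genes with a mean of at least 20 junction reads were tested with limma on log2 CPM (prior count 2, median-of-ratios scaling, trended variance), called at an adjusted p under 0.05. Reads of the skipping junctions are not in a gene's sum. Both fits used all 12 libraries and were tested on simulated data. A change "in both lines" is the mean of the lines' changes. Alternatives were the weights, read minimum, pseudocount, PSI range, PSI threshold, scaling, prior count, variance trend, replicate block, each library left out and the authors' calls.

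All members were named, with the 85 nt Mdm2 exon, the measured Mdm4 exons, called events and, of each gene list, up to 6 genes per direction called in each line. The members and lists were chosen with earlier results of these data known. The other events and list genes named were chosen after their values were seen. The deposited event coordinates are not GRCm38 and their assembly is not stated; GRCm38 positions come from GENCODE exons of matching exon and intron lengths. Sequences are from GENCODE transcripts and RefSeq promoters; Zmat3 has no promoter entry.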

Additional observations from a re-analysis of the deposited data

How the results depend on the processing

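The fall and return of the 85 nt Mdm2 exon kept direction and call in every alternative run. Leaving out each library in turn gave -64.1 to -61.6 points on knockdown and 37.4 to 39.0 points on induction. The same leave-outs gave 2 member events called on knockdown and 2 on induction throughout and 0 for the line difference, 2 to 3 member genes on knockdown, 1 on induction and 0 for the line difference, and 14 to 18 p53 targets on knockdown and 7 to 10 on induction. Calling at 15 points left 1 member event on knockdown and 1 on induction, against 2 and 2, since the 97 nt exon moved by under 15 points. With the Mdm2 junctions beside its changed exons left out, chosen after seeing the data, 2 member genes were called on induction against 1, and the Mdm2 change on knockdown was 0.17 against -0.02. The calls of the authors' deposited table gave 0 member genes and 3 p53 targets on induction, against 1 and 10; the cause was not tested. Scaling to total junction reads moved the median of all genes by 0.03 (log2).

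Libraries with the same letter deviated together with correlations of -0.13 to 0.16 over genes, so no strong shared effect of the letter was seen. Such values cannot show whether A and B were made as matched sets, and the main fits used no replicate block. With the replicate block, 11 p53 targets were called on induction against 10, and 16 on knockdown as without it. Where a left-out library leaves a group with 1 sample, the spread of that lone sample is taken from the other groups. With 2 libraries a group, small changes of thinly read events such as the Mdm4 exons and of Bbc3 cannot be resolved.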

Other observations

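The exons of other genes whose PSI followed the 85 nt Mdm2 exon most closely over the 12 libraries were a 222 nt and a 248 nt exon of Mtap4, which encodes a microtubule-associated protein, a 133 nt exon of Ccdc45, a 76 nt exon of Psmg4, a proteasome assembly chaperone gene, and a 102 nt exon of 5730419I09Rik. They were the nearest of 98329 exons compared, by the root mean square difference in PSI, which was 4.41, 7.43, 6.95, 7.29 and 7.47 points in that order. Their PSI changed on knockdown by -56.7, -55.4, -57.5, -48.8 and -60.9 points in the same order. Being chosen for likeness, they are a description and carry no test.

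The genes whose level over the 12 libraries correlated most with that of Mdm2, of 9761 compared, were Irak1bp1 (Pearson r 0.92), Zfp9 (0.90), Ids (0.90), Scyl2 (0.89) and Mtmr6 (0.89). Mdm2 spanned only 0.24 on the log2 scale over these libraries, and the libraries share groups, lines and depth, so these values are given as a description of likeness.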
